A study of Rattus norvegicus with 56 samples.

Results

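The comparison described here is that of L-dopa against saline in sham-operated rats, over arrays that were numbered 38 and above. It holds 12 of the 56 rats of the series, 5 given L-dopa (rats 38 to 42) and 7 given saline (rats 50 to 56). They were chosen by the group in their titles and by their array number, a rule that uses no expression difference between the groups. Earlier results of these data were known when the comparison was chosen. A further 2 sham rats given L-dopa, numbers 36 and 37, were left out, because signals of some probe sets step between arrays 37 and 38. That step was found from the values, and the labels name no batch. In 1 probe set of Gosr1, rats 36 and 37 had log2 signals of 7.87 and 8.94, while all arrays from 38 onward lay between 6.02 and 7.07.

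All 12 rats were male Crl:OFA (Sprague Dawley) rats that had received the AAV vector expressing GFP, the sham counterpart of an alpha-synuclein vector that causes nigral dopamine loss. The promoter of the vector and the cells it reached are not given in the sources used here. From 5 weeks after surgery the rats were injected daily for 3 weeks with L-dopa methyl ester (50 mg/kg) plus benserazide, or with saline. Both groups then had saline only in every 40 min place conditioning session, and tissue was taken right after a 20 min test, 24 or 48 h after the last session. The interval between the last L-dopa injection and tissue collection is not given in the labels. The dorsal striatum of each rat was run on 1 Affymetrix Rat230_2 array from 100 ng of total RNA. Values are log2 signals, so a difference of 1 is a doubling.

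L-dopa crosses into the brain and is turned into dopamine by the enzyme that Ddc encodes, and benserazide blocks that step outside the brain. Dopamine acts on the spiny projection neurons of the striatum, raising cAMP through D1 receptors and lowering it through D2 receptors, and the cAMP and ERK pathways switch on immediate early genes such as Fos, Egr1 and Arc. L-dopa is known for inducing these genes, and later Pdyn, in striatum that has lost its dopamine input, whereas in rats with that input in place, as the sham rats are meant to be, the same dose meets working dopamine terminals.

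The tissue label was checked on marker genes. In both groups the spiny neuron genes Penk, Drd1 and Ppp1r1b had mean log2 signals above 10, from 10.3 to 12.2. Transcripts made in midbrain dopamine neurons (Th, Slc6a3, Slc18a2, Gch1) and the receptor Drd3 had means under the filter of 5 and were not tested. The 12 arrays had median log2 signals between 5.67 and 5.81 and correlated with each other across probe sets at 0.946 to 0.955. The signal of 3' minus 5' probe sets of control genes, a measure of RNA breakdown, was 0.978 ± 0.187 (SD, n = 5) with L-dopa and 1.01 ± 0.131 (SD, n = 7) with saline (two-sided exact permutation test, p = 0.760).

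No probe set passed the test. Of 18750 tested, 0 (0%) reached a Benjamini-Hochberg adjusted p under 0.05 in limma, and the smallest adjusted p was 0.436. At an unadjusted p under 0.05, 629 (3.35%) were higher and 457 (2.44%) lower with L-dopa, together 5.79% of all. An exact permutation test of each probe set gave 1118 at an unadjusted p under 0.05 and 0 after adjustment. Without saline rat 56 the limma fit called 1 probe set, which has no gene symbol. The split of the unadjusted calls turned with the scaling: 57.9% were higher as deposited, 47.3% after quantile normalization and 30.7% with each array centred on its median. It turned also with the scaling unchanged, to 40.1% with a mean signal above 7 (225 higher, 336 lower) and 48.2% in the permutation test (539 higher, 579 lower).

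Differences were small in this comparison. The median difference over all probe sets was 0.00 and the median size was 0.07. The median SE of 0.10 gives a 95% interval of 0.21 to either side. Only 87 probe sets differed by more than 0.5 in either direction, and 1 by more than 1, an unnamed probe set 1.51 higher with L-dopa (limma adjusted p = 0.830). The ranges of the 5 and 7 rats did not overlap at 34 probe sets higher with L-dopa (0.181%) and 34 lower (0.181%).

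Immediate early genes, which neurons transcribe within minutes of stimulation, had the highest median difference of the 17 pathway lists. Of 40 listed genes 28 were tested, and 22 of the 28 had a mean above that of the saline rats, against 51.6% of all probe sets. Their median difference was 0.14. Unadjusted limma p-values under 0.05 were reached by 3 of them (Ier5, Fosb and Nr4a2), all higher with L-dopa, where the share of all probe sets was 3.35%. None passed the adjusted test.

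Promoter windows of 3 of these genes are shown because the factors that switch on immediate early genes, CREB and SRF, are known to bind the cAMP response element (TGACGTCA) and the CArG box. Each window holds the 250 bases before the start of the RefSeq gene in the rat build GRCr8, 5' to 3' on the gene's strand, and capitals mark a match to either motif on either strand. Egr2 (chr20:21054442-21054691, minus strand) holds a CArG box that begins 83 bases before the start. Ier2 (chr19:40399123-40399372, plus strand) holds a cAMP response element that begins 66 bases before it. Ier5 (chr13:69822543-69822792, minus strand) holds neither.
Egr2: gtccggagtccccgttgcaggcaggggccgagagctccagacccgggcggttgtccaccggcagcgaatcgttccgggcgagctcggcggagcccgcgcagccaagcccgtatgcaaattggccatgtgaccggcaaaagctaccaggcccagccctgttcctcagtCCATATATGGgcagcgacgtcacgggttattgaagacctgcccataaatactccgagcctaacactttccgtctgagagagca
Ier2: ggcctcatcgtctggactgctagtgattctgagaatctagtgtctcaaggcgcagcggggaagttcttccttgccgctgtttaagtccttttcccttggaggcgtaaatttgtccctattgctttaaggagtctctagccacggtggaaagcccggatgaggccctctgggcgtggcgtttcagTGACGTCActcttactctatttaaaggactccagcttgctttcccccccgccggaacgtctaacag
Ier5: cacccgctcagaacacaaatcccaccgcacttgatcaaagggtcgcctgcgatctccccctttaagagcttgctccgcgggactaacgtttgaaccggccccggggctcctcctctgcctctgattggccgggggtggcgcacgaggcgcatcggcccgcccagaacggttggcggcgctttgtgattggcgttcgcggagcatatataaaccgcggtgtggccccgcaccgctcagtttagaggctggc
Among the 28 tested genes 23 had an entry, with 30 windows in all, and Fos and Arc had none. Windows of 3 of the 23 genes (13%, Jund, Ier2 and Dusp1) held the cAMP response element and of 2 (8.7%, Egr1 and Egr2) the CArG box. Of all 33469 promoter windows of that length, 1.59% held the first and 1.5% the second. These last shares count windows, while those of the list count genes, some with several windows. Genes with and without a match stood among both the higher and the lower members of the list: the differences were 0.67 for Egr2, -0.01 for Ier2 and 0.35 for Ier5. A match describes the letters of the window and says nothing of binding in these rats.

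Ier5, a nuclear regulator induced with the growth response, had the smallest p of the list. Its log2 signals in L-dopa rats 38 to 42 were 8.12, 8.76, 8.48, 8.37 and 8.28, and the saline rats ran from 7.75 through a median of 7.99 to 8.28. All 5 L-dopa rats lay above the saline mean, but the ranges overlapped. The difference was 0.35 ± 0.11 (SE; exact permutation p = 0.0126, limma adjusted p = 0.830).

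Fosb encodes an AP-1 subunit whose truncated form builds up in striatum under repeated dopamine drugs. Its signals were 5.08, 5.44, 5.26, 5.01 and 5.78 with L-dopa, and 4.70 to 5.31 with a median of 4.98 in the saline rats. These levels sit just above the filter, and the single probe set cannot tell the full-length from the truncated transcript. The difference was 0.36 ± 0.13 (SE; exact permutation p = 0.0303, limma adjusted p = 0.831). Rats 39 and 42 were above every saline rat, and the other 3 were within the saline range.

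Fos, the AP-1 subunit used as the standard mark of recent neuronal activity, was the most variable of these genes among the saline rats. With L-dopa it read 7.40, 8.58, 7.75, 7.93 and 7.93, and with saline 6.22 to 9.21 with a median of 7.09. All 5 L-dopa rats were above the saline mean, and the highest value of all 12 was that of saline rat 53. The difference was 0.62 ± 0.42 (SE; limma adjusted p = 0.902), with a 95% interval from -0.29 to 1.53.

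The zinc finger factor Egr2 differed by 0.67 ± 0.37 (SE; limma adjusted p = 0.884) with all rats and by 0.34 without rat 39. Its signals in the L-dopa rats were 6.51, 9.00, 7.61, 7.38 and 7.96, against 6.58 to 8.22 with a median of 6.80 in the saline rats. Rat 38 was the lowest of all 12 rats and rat 39 the highest, so the L-dopa range enclosed the saline range at both ends. Its relative Egr1, a factor with high basal expression in striatum, read 10.80, 11.80, 11.26, 11.27 and 11.20 with L-dopa and 10.60 to 11.40 (median 10.97) with saline, a difference of 0.32 ± 0.16 (SE; limma adjusted p = 0.860) that was 0.19 without rat 39.

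Nr4a1 encodes an orphan nuclear receptor that dopamine regulates in spiny neurons. It read 7.19, 8.32, 7.38, 7.02 and 7.06 with L-dopa and 6.24 to 7.59 (median 6.68) with saline. All 5 L-dopa rats stood above the saline mean, and only rat 39 was above the whole saline range. The difference was 0.55 ± 0.26 (SE; limma adjusted p = 0.854), and it was 0.32 without rat 39.

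Its paralogue Nr4a2, which dopamine neurons also need for their identity, had a smaller spread. The L-dopa rats read 8.30, 8.26, 8.00, 8.30 and 8.06, and the saline rats 7.62 to 8.21 with a median of 8.04. The difference was 0.22 ± 0.10 (SE; exact permutation p = 0.0505, limma adjusted p = 0.854). A second probe set of Nr4a2 differed by 0.32 ± 0.14 (SE) in the same direction.

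Arc, an effector that acts at synapses to remove AMPA receptors, was 6.82, 7.90, 7.20, 6.99 and 7.14 with L-dopa and 5.76 to 8.12 (median 6.59) with saline. The difference of 0.46 ± 0.34 (SE; limma adjusted p = 0.908) was smaller than the SD of the saline rats, 0.79, and it was 0.29 without rat 39 and 0.69 without rat 53. Junb, the AP-1 partner of Fos, lay on the other side at -0.15 ± 0.21 (SE), with -0.28 without rat 39 and -0.05 without rat 53. So did Sgk1, a kinase that glucocorticoids also induce, at -0.33 ± 0.25 (SE), with -0.12 without rat 54. The scaffold Homer1 (-0.01 ± 0.07, SE) and the phosphatase Dusp1 (0.05 ± 0.28, SE) differed by less than their SE.

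**Figure D1:**
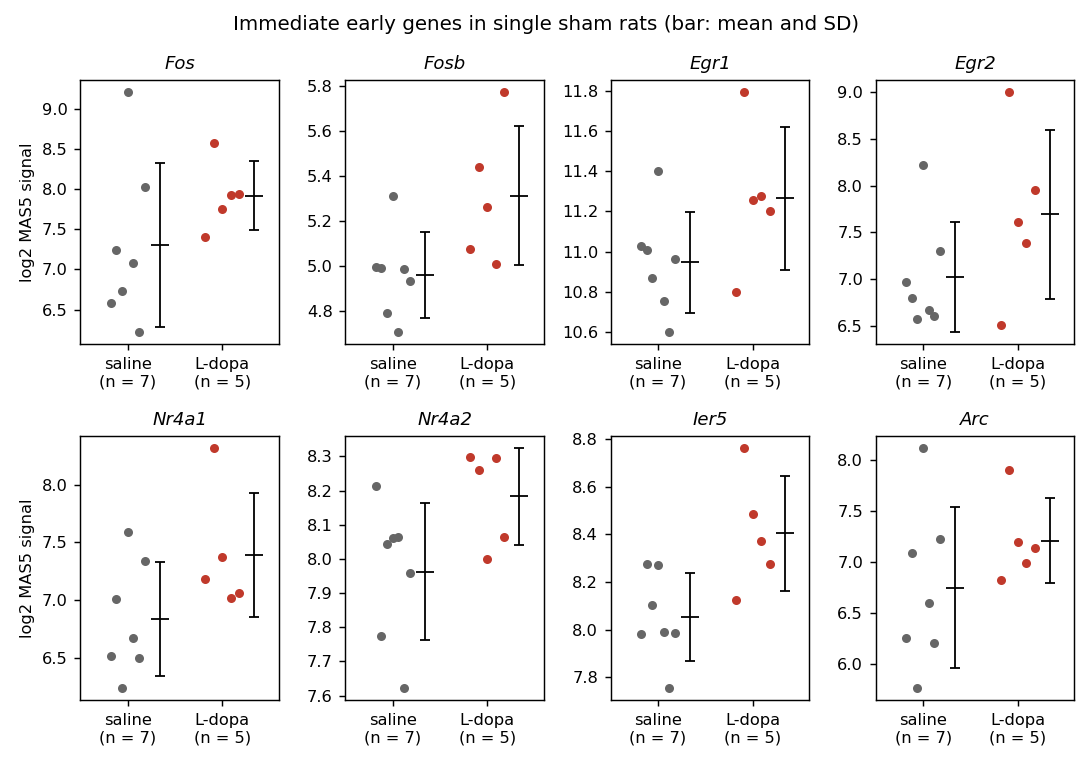
Log2 signals of 8 immediate early genes, 1 panel per gene with its own vertical axis, in 7 saline rats (grey) and 5 L-dopa rats (red); the bar beside each group is its mean and SD. The groups overlap in all 8 panels, and in the Fos panel the highest point is a saline rat, at 9.21.

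Within each group 1 rat had high values in most of the immediate early genes. A score was taken for each rat as the mean of the 28 genes, each centred on its mean over the 12 rats. It was -0.07, 0.42, 0.09, -0.00 and 0.06 in L-dopa rats 38 to 42, and ran from -0.26 through a median of -0.14 to 0.43 in the saline rats. Rat 39 had the highest signal of the L-dopa rats in 17 of the 28 genes, and rat 53 that of the saline rats in 18 of 28.

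The size of the list's median rests on those rats. Without rat 39 it was 0.09, with 20 of 28 genes above 0, and without rat 53 it was 0.23, with 25 of 28 above 0. Fos alone differed by 0.94 without rat 53. Rat 39 also had the highest 3' minus 5' signal of the 12, 1.24. With each array centred on its median 19 of the 28 genes were above 0. The median of all probe sets was then -0.03, so the share of them above 0 given earlier does not hold there. With the 3' minus 5' signal as a covariate 22 of the 28 were above 0 and the median was 0.15.

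The 7 sham rats without L-dopa that were conditioned with pramipexole (2 mg/kg), a D2/D3 agonist, give another level, from arrays of the same set. On the same scale their immediate early gene score ran from -0.18 to 0.43 with a median of 0.37. The scores of the L-dopa rats therefore lay between the medians of the other 2 sham groups in 4 of the 5 rats, rat 39 being the exception. For Fos the medians were 7.09 with saline and 8.40 with pramipexole. These levels are given as a description only.

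Genes that identify spiny neurons were close to 0 in difference. Of 9 tested genes of D1 neurons 3 were above 0 (median -0.06), of 5 of D2 neurons 1 (median -0.02), and of 19 shared by both 12 (median 0.04). In these lists 1 gene had an unadjusted p under 0.05, Eya1 at -0.23 ± 0.09 (SE), where 2.44% of all probe sets were lower at that p. In bulk tissue fewer cells of a type and less RNA per cell cannot be told apart.

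Drd1, the receptor that couples dopamine to cAMP production, read 10.76, 10.64, 10.64, 10.81 and 10.89 with L-dopa and 10.49 to 11.06 (median 10.80) with saline. All L-dopa values fell inside the saline range. The difference was -0.07 ± 0.09 (SE), with a 95% interval from -0.26 to 0.12. The interval does not show the levels to be equal.

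Pdyn encodes the opioid precursor that L-dopa raises in dopamine-depleted striatum. Its values were 9.78, 10.16, 9.86, 10.16 and 10.32 with L-dopa and 9.72 to 10.29 (median 9.88) with saline, a difference of 0.09 ± 0.12 (SE; 95% interval -0.17 to 0.35). Only rat 42 was above the saline range. Tac1, the substance P precursor of the same neurons, differed by -0.09 ± 0.13 (SE; 95% interval -0.37 to 0.19).

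The D2 receptor gene Drd2 read 9.66, 9.80, 9.74, 9.62 and 9.72 with L-dopa and 9.48 to 10.01 (median 9.75) with saline, a difference of -0.02 ± 0.10 (SE; 95% interval -0.23 to 0.19). Penk, the enkephalin precursor of D2 neurons, read 12.13, 12.22, 12.08, 12.13 and 12.14 against 12.00 to 12.36 (median 12.13), a difference of -0.02 ± 0.07 (SE; 95% interval -0.16 to 0.12). The L-dopa rats lay inside the saline range for both genes. Ppp1r1b, which encodes the cAMP target DARPP-32, differed by 0.07 ± 0.07 (SE).

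**Figure D2:**
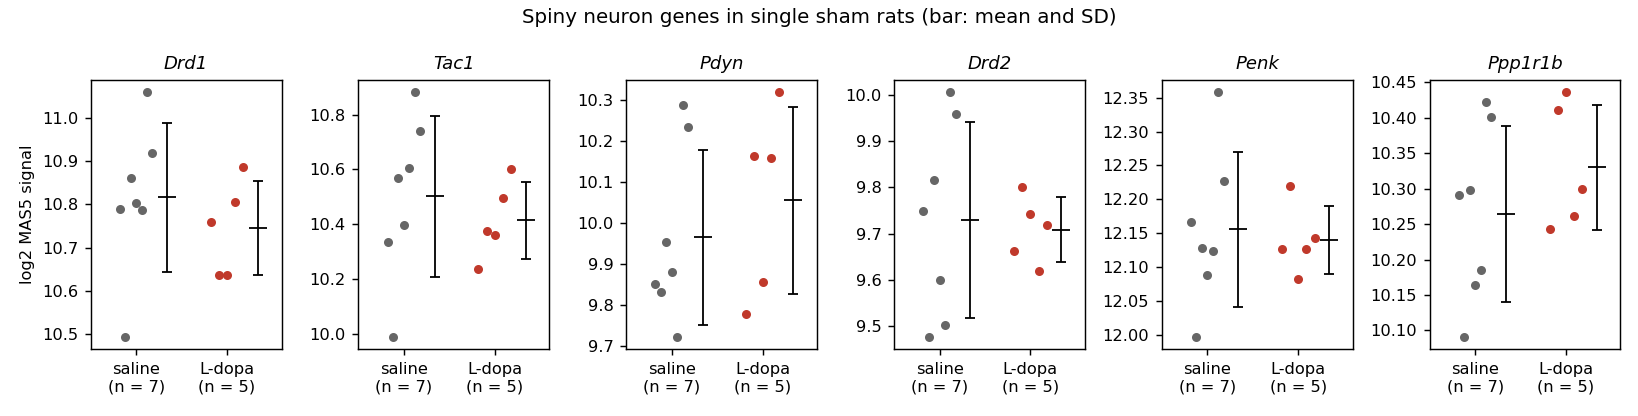
Log2 signals of 6 spiny neuron genes, 1 panel per gene with its own vertical axis, in 7 saline rats (grey) and 5 L-dopa rats (red); bars are means and SDs. The means differ by 0.09 or less in all 6 genes, and the saline rats have the larger SD in all of them but Pdyn.

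Signalling genes showed few differences. Of 35 tested dopamine and cAMP signalling genes 24 were above 0 (median 0.03), and 1 was higher at an unadjusted p under 0.05, where the share of all probe sets was 3.35%. This was Grk2, a kinase that desensitizes G protein-coupled receptors, at 5.81, 6.07, 6.13, 6.09 and 5.90 with L-dopa and 5.41 to 6.00 (median 5.69) with saline. The difference was 0.31 ± 0.10 (SE; limma adjusted p = 0.831).

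Of 20 tested genes linked to L-dopa-induced dyskinesia, the abnormal movements that follow long treatment of parkinsonian animals, 10 were above 0 (median -0.00). Beside Fosb, the largest differences were those of Arc and of Rasgrp1, an activator of Ras in striatal neurons, at 0.26 ± 0.16 (SE; limma adjusted p = 0.889), or 0.15 without saline rat 53. Among 17 neuropeptides and opioid receptors 10 were above 0 (median 0.09), and the nociceptin receptor gene Oprl1 was 0.35 ± 0.13 higher (SE; limma adjusted p = 0.831).

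Ddc, the gene of the enzyme that converts L-dopa, read 6.97, 6.96, 7.31, 6.53 and 6.77 in the treated rats and 6.14 to 6.81 (median 6.57) in the saline rats. The first 3 of these rats were above the whole saline range. The difference was 0.39 ± 0.14 (SE; limma adjusted p = 0.831), while a weaker probe set of Ddc read -0.23 ± 0.20 (SE). Of the 5 tested genes of dopamine terminals 2 were above 0 and 3 below (median -0.01). Their differences ran from -0.58 to 0.39, with Ddc the highest. Of the 9 listed, 4 were not tested.

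More synaptic genes lay above 0 than below. Of 20 tested genes of synaptic vesicle release 15 were above 0 (median 0.06), against 51.6% of all probe sets. Of the 20, 3 were higher at an unadjusted p under 0.05, against 3.35% of all: Syt1, the calcium sensor of release, at 0.42 ± 0.17 (SE), Stx1a, a SNARE protein, at 0.30 ± 0.13 (SE), and Syn1, which tethers vesicles, at 0.26 ± 0.12 (SE). Their limma adjusted p-values were 0.847 to 0.854, and a second Syn1 probe set read -0.04. The vesicle release score was lowest in saline rats 55 and 56, at -0.18 and -0.13, which were also lowest for cerebral cortex markers, at -0.46 and -0.50. The lowest L-dopa rat was 42 in both, at -0.07 and -0.16, and the part of cortical tissue in the synaptic values was not tested. Of 32 glutamate receptor and postsynaptic density genes 23 were above 0 (median 0.04), none at an unadjusted p under 0.05. Shank3, a postsynaptic scaffold, had the largest difference of these at -0.33 ± 0.17 (SE; limma adjusted p = 0.877), or -0.17 without L-dopa rat 41, and 8 of 15 GABA signalling genes were above 0 (median 0.01).

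In the housekeeping lists more genes lay below 0 than above. Of 67 tested subunits of oxidative phosphorylation, the mitochondrial machinery of ATP production, 53 were below 0, against 48.4% of all probe sets. Of 30 proteasome subunits 24 were below 0, of 35 cytosolic ribosomal proteins 28, and of 32 chaperones of the endoplasmic reticulum and heat shock response 25. The medians were small, at -0.04, -0.05, -0.04 and -0.05. Each gene stands by its brightest probe set, and brighter probe sets leaned lower as a whole. With a mean signal above 7, the median difference of all probe sets was -0.01. At an unadjusted limma p under 0.05, 225 of those were higher and 336 lower. The part of signal level in the list counts was not tested. Members of these lists with an unadjusted p under 0.05, all lower, were 2 of 67, 0 of 30, 1 of 35 and 2 of 32, where the share of all probe sets was 2.44%. None passed the adjusted test.

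Ndufa6, an accessory subunit of complex I, was the only one of the 67 whose groups did not overlap, where the share of all probe sets was 0.181%. It read 10.51, 10.50, 10.41, 10.48 and 10.41 with L-dopa and 10.51 to 10.64 (median 10.56) with saline. The gap is in the third decimal place, and the difference was -0.11 ± 0.05 (SE; limma adjusted p = 0.856). Atp5me, a subunit of ATP synthase, and Ndufc2, of complex I, differed by -0.17 ± 0.07 and -0.16 ± 0.07 (SE), and a second, weak Atp5me probe set read 0.20.

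Among the chaperones, Hspb1, a small heat shock protein, had the largest difference at -0.53 ± 0.22 (SE; limma adjusted p = 0.848). It read 5.74, 6.28, 6.07, 5.86 and 6.18 with L-dopa and 6.07 to 7.61 (median 6.33) with saline. Without saline rat 54 the difference was -0.35. Hspa5, the main chaperone of the endoplasmic reticulum, differed by -0.23 ± 0.13 (SE) and Dnajc3, its co-chaperone, by -0.22 ± 0.09 (SE).

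**Figure D3:**
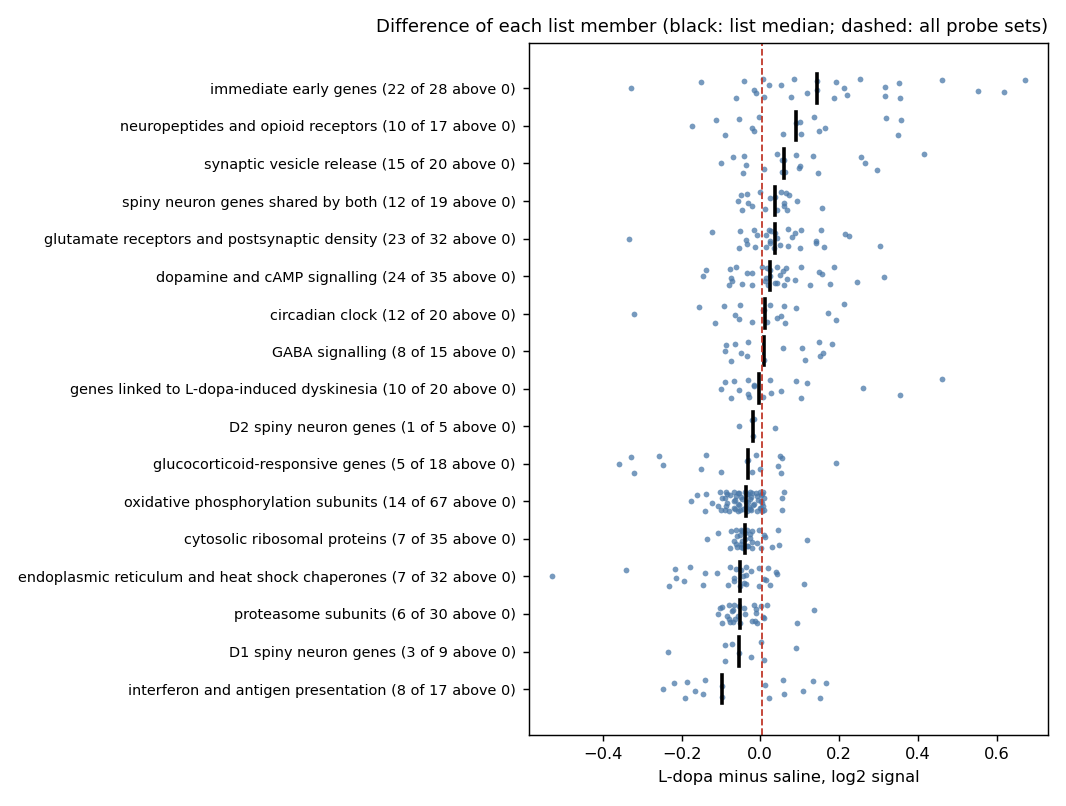
Difference in log2 signal (L-dopa minus saline, horizontal axis) of every tested member of 17 pathway lists, 1 point per gene, with the list median as a black bar and the median of all probe sets as a dashed line. Immediate early genes have the widest upward spread, to 0.67, while the points of oxidative phosphorylation subunits crowd just below 0 around a median of -0.04.

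Glucocorticoid-responsive genes, which corticosterone induces under stress, had 5 of 18 above 0 (median -0.03). Saline rat 54 had the highest score of that list, 0.62, and the highest signal of the saline rats in 11 of the 18 genes. The lowest score was that of saline rat 55, at -0.21, and L-dopa rat 40 was highest of its group in 10 of the 18. Pdk4, which turns cells from glucose to fat use, differed by -0.36 ± 0.31 (SE) with all rats, by -0.11 without rat 54 and by -0.20 without rat 38. Clock genes had 12 of 20 above 0 (median 0.01), with Cry1, a repressor of the clock, at -0.32 ± 0.14 (SE; limma adjusted p = 0.850). Interferon and antigen presentation genes had 8 of 17 above 0 (median -0.10).

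Markers of other cell types were read as scores on the same centred scale. The cerebral cortex list ran from -0.16 to 0.17 in the L-dopa rats and from -0.50 to 0.22 in the saline rats, with rats 55 and 56 lowest at -0.46 and -0.50. Leptomeningeal genes ran from -0.08 to 0.26 against -0.15 to 0.04, with Igf2 at 0.37 ± 0.14 and the collagen gene Col1a2 at 0.31 ± 0.13 (SE). Of the 9 tested, 7 were above 0 (median 0.15). That median and the 0.21 of 3 choroid plexus genes were above the 0.14 of the immediate early genes. Without rat 56 the median of the 12 cortical genes went from 0.10 to -0.00.

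Of the remaining marker lists, astrocytes had 2 of 11 above 0 (median -0.04), oligodendrocytes 5 of 13, endothelial and mural cells 12 of 17 (median 0.02), microglia 5 of 13, striatal interneurons 2 of 6, choroid plexus 2 of 3, ependyma 2 of 4, and septum, thalamus and pallidum 4 of 7. Microglia scores ran from -0.29 to 0.23 with L-dopa and from -0.20 to 0.59 with saline, with rat 54 highest. Cx3cr1, a receptor of microglia, differed by 0.40 ± 0.17 (SE) and by 0.28 without rat 56. The single blood gene tested, Hbb, differed by 0.06 ± 0.12 (SE). The part of these cell types in the gene differences was not tested.

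**Figure D4:**
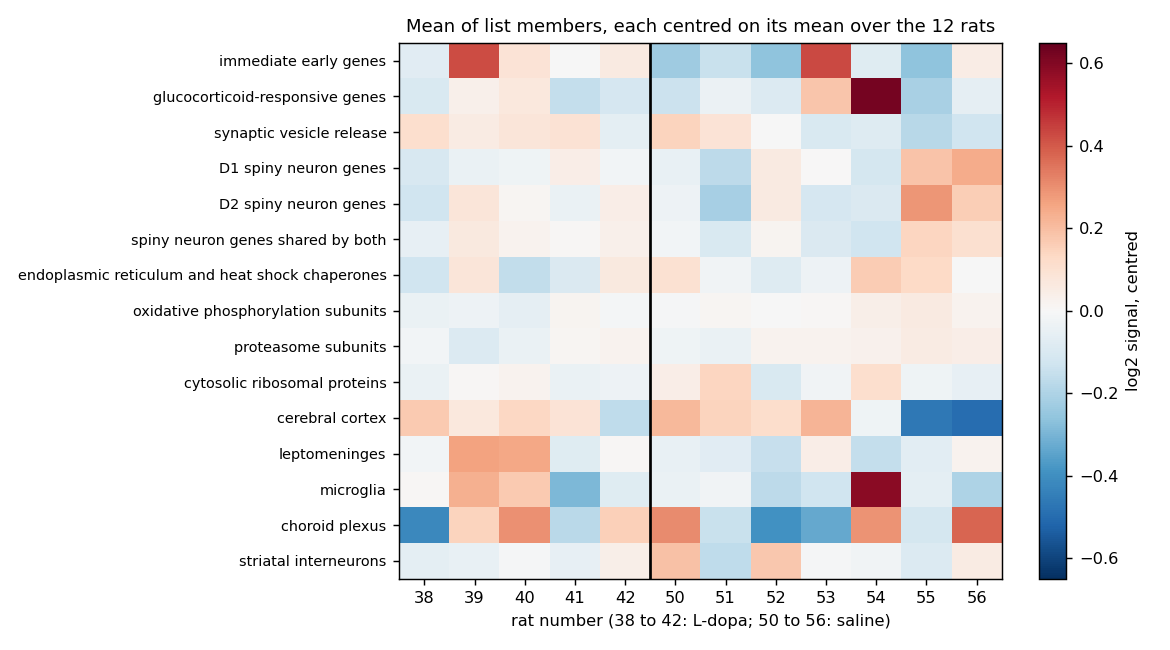
Scores of 15 gene lists (vertical axis) in each of the 12 rats (horizontal axis, L-dopa left of the line, saline right), as the mean of the list's genes in log2 signal after centring each gene over the 12 rats. Rats 39 and 53 are high for immediate early genes (0.42 and 0.43), rat 54 for glucocorticoid-responsive and microglial genes (0.62 and 0.59), and rats 55 and 56 are low for cortical genes.

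The single genes of smallest p were mostly outside these lists. Among the 12 named higher with L-dopa, 6 had groups that did not overlap, and 9 had a mean log2 signal under 6. Among the 12 named lower, 8 did not overlap, and 2 had a mean under 6. All 5 L-dopa rats lay on the named side of the saline mean in each of the 24, and the limma adjusted p-values ran from 0.471 to 0.774. The genes were picked by p in these same rats, so the lack of overlap and the shared side follow largely from the choice. Over all probe sets 0.181% did not overlap on the higher side and 0.181% on the lower.

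Znf865, a zinc finger gene, had the smallest p of the genes with a symbol. It read 5.64, 5.74, 5.88, 5.67 and 5.97 with L-dopa and 4.97 to 5.43 (median 5.33) with saline. Every L-dopa rat was above every saline rat, and the difference was 0.49 ± 0.09 (SE; limma adjusted p = 0.471). A second, brighter Znf865 probe set differed by 0.08 ± 0.08 (SE).

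Lrrc7 encodes densin-180, a scaffold of the postsynaptic density. It read 7.53, 7.81, 7.52, 7.53 and 7.57 with L-dopa and 7.02 to 7.36 (median 7.24) with saline. The groups did not overlap, and 4 of the 5 L-dopa rats lay close together while rat 39 stood above them. The difference was 0.39 ± 0.07 (SE; limma adjusted p = 0.501).

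Cacng4, an auxiliary subunit of AMPA receptors, differed by 0.64 ± 0.14 (SE; limma adjusted p = 0.731), reading 5.58, 5.78, 5.77, 5.54 and 5.46 against 4.56 to 5.52 (median 5.01). Only rat 42 fell within the saline range. Dtna, a dystrobrevin of the dystrophin complex, differed by 0.36 ± 0.09 (SE), but a brighter probe set of it read 0.10 ± 0.10 (SE) and a further one -0.07. Gss, glutathione synthetase, differed by 0.32 ± 0.08 (SE). The kinase gene Cdk10 differed by 0.61 ± 0.13 (SE), while its brighter probe set read 0.02 ± 0.16 (SE). Further higher genes were LOC102553541 (0.66), Scarf2 (0.56), Rnf122 (0.44), Klhl22 (0.44) and Rad54l2 (0.34).

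Chchd3, which holds the inner membrane folds of mitochondria in shape, had the second smallest p of the lower genes. It read 8.60, 8.52, 8.45, 8.50 and 8.57 with L-dopa and 8.72 to 8.85 (median 8.79) with saline. Every L-dopa rat was below every saline rat, and the difference was -0.26 ± 0.05 (SE; limma adjusted p = 0.623). Sco1 and Cmc1, both of which assist the assembly of cytochrome c oxidase, differed by -0.41 ± 0.10 and -0.29 ± 0.08 (SE). Neither is in the list of subunits.

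Ttc9c, a tetratricopeptide repeat gene, read 8.51, 8.37, 8.42, 8.48 and 8.28 with L-dopa and 8.63 to 8.95 (median 8.75) with saline, a difference of -0.36 ± 0.07 (SE; limma adjusted p = 0.558) with no overlap. Its 3 other probe sets read -0.09, -0.11 and 0.06. Further lower genes were Pdcl1-ps1 (-0.65), Cdkl4 (-0.61), C19h1orf131 (-0.43, with a second probe set at 0.05), Abca8 (-0.31), Ppil3 (-0.26), Swsap1 (-0.24) and Tpd52l2 (-0.23).

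Lesioned rats under the same regimen, 7 with L-dopa and 7 with saline and all saline conditioned, share no sample with the sham rats. Their arrays all came before the step in signals, and those of the 12 sham rats after it. A fixed step cancels in each L-dopa difference, but lesion and array set cannot otherwise be told apart here. In the lesioned rats 1 probe set of 18750 (0.00533%) passed the adjusted test (smallest limma adjusted p = 0.0105). At an unadjusted p under 0.05, 1323 (7.06%) were higher and 995 (5.31%) lower. The difference between the 2 changes was tested at every probe set. None passed (0%; smallest limma adjusted p = 0.305), and 1118 (5.96%) had an unadjusted p under 0.05. Across probe sets, which are not independent replicates, the sham and lesioned differences correlated at r = 0.141 and had the same sign in 56.9%.

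Immediate early genes were above 0 in 18 of 28 in the lesioned rats (median 0.08; 52.8% of all probe sets were above 0), against 22 of 28 in the sham rats. Ier5 differed by 0.39 ± 0.13 (SE) there and by 0.35 ± 0.11 in the sham rats, and the difference of these was -0.04 ± 0.20 (SE). For Fosb the lesioned value was 0.01 ± 0.14 (SE), and the sham change was 0.35 ± 0.21 larger (SE; limma interaction adjusted p = 0.871). Spiny neuron genes shared by both types were above 0 in 2 of 19 lesioned against 12 of 19 sham. Tac1 differed by -0.47 ± 0.17 (SE) in the lesioned rats, with an interaction adjusted p of 0.882.

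Oxidative phosphorylation subunits were below 0 in 49 of 67 in the lesioned rats (47.2% of all probe sets were) and in 53 of 67 in the sham rats, with 15 of them at an unadjusted p under 0.05 among the lesioned (5.31% of all probe sets were lower at that p) and 2 among the sham. The chaperones were below 0 in 27 of 32 and 25 of 32, and vesicle release genes were above 0 in 17 of 20 and 15 of 20. Cytosolic ribosomal proteins were below 0 in 11 of 35 lesioned and 28 of 35 sham. The cortical marker list had a median difference of 0.46 in the lesioned rats and 0.10 in the sham rats, and its part in these values was not tested.

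Of the 24 genes of smallest p in the sham rats, 7 of the 12 higher ones were also above 0 in the lesioned rats and 10 of the 12 lower ones were also below 0. Chchd3 differed by -0.19 ± 0.06 (SE) in the lesioned rats, close to its sham value. Plekhb2, which sorts membrane proteins in endosomes, went furthest apart, with 0.69 ± 0.16 in sham and -0.47 ± 0.15 in lesioned rats (SE; interaction adjusted p = 0.305). That probe set is weak, and a brighter one of the same gene read -0.13 ± 0.12 (SE) in the sham rats. An unadjusted interaction p under 0.05 was reached by 14 of the 24, which were picked for a large sham difference, so that count is a description.

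**Figure D5:**
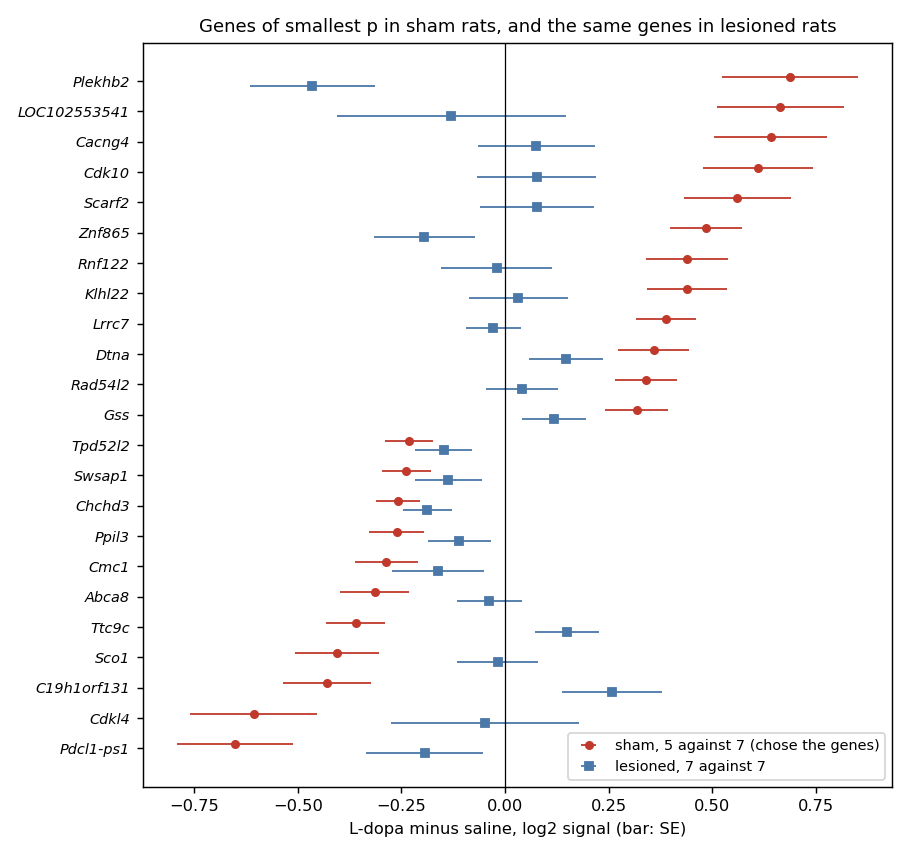
Difference in log2 signal (L-dopa minus saline, horizontal axis; bars are SE) of 23 of the 24 genes with the smallest p in sham rats, in sham rats (red circles, 5 against 7) and in lesioned rats (blue squares, 7 against 7). The red points are far from 0 by choice; the blue points lie nearer to 0 for most genes and reach -0.47 for Plekhb2.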

How the data were processed

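The table the authors deposited holds log2 signals of 31099 probe sets, made with MAS5 per the submitters' processing notes, with version and scaling target not given in the sources used here. Raised to the power of 2, the values have a trimmed mean of 150.042 to 150.044 on each of the 12 arrays, so arrays had been scaled to a common level. Nothing was done to them beyond that before the tests.

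Groups come from the labels, with 1 array per rat. After leaving out 57 control probe sets, the 18750 of 31042 with a mean log2 signal above 5 over the 12 arrays were tested. Of these 13678 carry 1 gene symbol, 312 several and 4760 none, and 99.7% of gene numbers matched the rat gene table with 0 symbols updated. No detection calls were used, and precision is limited by how few arrays there are. The main test was limma 3.58.1 (R 4.3.3): a linear model with a mean for each of the 2 groups, then eBayes, two-sided, with Benjamini-Hochberg adjustment over all probe sets. The lesioned difference and the interaction came from 1 fit over the 4 groups, on the same probe sets. The 2 RNA and signal measures were compared by exact permutation over 792 splits (smallest possible p 0.00126). The fits were tested on simulated data.

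The 12 genes of smallest p in each direction are named because fewer than 5 were called, with up to 4 genes of smallest p from each of 17 pathway lists, up to 2 from each of 12 cell type lists, and a fixed set of striatal and immediate early genes. The text describes part of these 118 genes, and 1 of them is not reported here. Other members are named for their role in a list, and Homer1, Dusp1, Ier2 and Jund after their values were seen. Each list member is represented by its brightest probe set, and 159 of 679 list members were not tested. The comparison, its members and the lists were chosen with earlier results of these data known. Promoter sequences are RefSeq's, build GRCr8. Alternatives were other filters, scalings, variance models, sets of arrays, a low-signal offset of 16, an RNA quality covariate and leaving out each rat.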

Additional observations from a re-analysis of the deposited data

Results flagged for a closer look

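Within a group, a single rat stood far from the nearest of the others in 16 of 238 combinations of a named gene or quality measure and a group, by Dixon's criterion at the 95% level, which chance alone meets in about 1 of 20. Of the 16, 9 were high and 7 low, and 6 were in L-dopa rats and 10 in saline rats.

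Saline rat 54 was set apart in 5 genes: it was highest for the glucocorticoid-induced kinase Sgk1 (10.49, next 9.36), for Pdk4 (7.52, next 6.25), for the immunoproteasome subunit Psmb9 (6.72, next 6.01) and for the microglial integrin Itgam (5.81, next 5.03), and lowest for Znf865 (4.97, next 5.27). Without rat 54 the difference of Sgk1 was -0.12 and that of Pdk4 -0.11. Saline rat 53 was lowest for the calcium sensor Syt1 (5.54, next 6.10), for the G protein subunit Gng7 (8.16, next 8.54) and for Sco1 (6.91, next 7.29).

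In the L-dopa group rat 39 was highest for Nr4a1 (8.32, next 7.38) and Lrrc7 (7.81, next 7.57). Rat 41 was lowest for Igf2 (6.85, next 7.29) and Cmc1 (5.57, next 5.81), and rat 42 was highest for Cdkl4 (6.78, next 6.44) and Rpl18 (10.69, next 10.60). The remaining 2 were saline rats: rat 51 was highest for Gss (6.09, next 5.79) and rat 56 lowest for Cx3cr1 (4.59, next 5.31).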

How the results depend on the processing

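No paired analysis was possible because rat numbers are not shared between groups. The 25 other settings were limma fits apart from the exact permutation test. The fit of all 56 arrays and the fit that added rats 36 and 37 with the array set as a block gave the same counts. Over the 25 settings the number of probe sets with an adjusted p under 0.05 was 0, except for 1 without saline rat 56 (0 to 1 over leaving out each rat). For the interaction it was 0 to 1 when a rat was left out, the 1 being without rat 55. Higher probe sets at an unadjusted p under 0.05 went from 629 to 1031 with no filter, 225 with a mean above 7 and 376 with arrays centred on their medians, where the lower ones numbered 847. Without single rats they ranged from 522 to 742 higher and from 400 to 481 lower. Interactions at that p were 1686 with no filter and 581 with a mean above 7, and 913 to 1226 without single rats. The 3' minus 5' difference was 0.0171 with Actb and Gapdh alone (exact permutation p = 0.846) and ran from -0.0951 to 0.0344 (without rat 42) when a rat was left out. Of 118 named genes 113 had 1 sign in all settings, Calb2, Drd2, Hbb, Penk and Ptprm being the others. The signal filters, the intensity trend, the permutation test and the array-set block left the group difference as it was. So did the fits that only added other groups. A sign change was not possible in any of these settings, and part of the genes had been picked for a small p. Median centring moved the list medians of oxidative phosphorylation and the proteasome to -0.07 and -0.09. The median of all probe sets moved down with them, from 0.00 to -0.03. The list median of immediate early genes ran from 0.09 to 0.23. The causes were not tested.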

Other observations

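The smallest p of all 18750 probe sets belonged to 1 that carries no gene symbol in the annotation used. Its mean log2 signal was 5.37 ± 0.176 (SD, n = 5) with L-dopa and 4.78 ± 0.158 (SD, n = 7) with saline, a difference of 0.60 ± 0.09 (SE; limma adjusted p = 0.436) with no overlap between the groups. In lesioned rats the same probe set differed by -0.08 ± 0.12 (SE). The unnamed probe set that was called without saline rat 56 differed by 0.53 ± 0.09 (SE; limma adjusted p = 0.471) with all rats, also without overlap, and by -0.01 ± 0.12 (SE) in lesioned rats. Without saline rat 56 its difference was 0.60 ± 0.07 (SE; limma adjusted p = 0.0359).

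Th and Drd3, left untested for low signal, read 3.83 to 4.78 and 3.25 to 3.75 in the L-dopa rats and 2.99 to 4.74 and 2.67 to 4.37 in the saline rats. The step genes that led to leaving out rats 36 and 37 include the immediate early gene Jund: those rats read 10.15 and 10.15, and all arrays from 38 onward lay between 9.42 and 9.82.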
